A study of Drosophila melanogaster with 8 samples.

Results

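The genes described here encode the axonal cytoskeleton of Drosophila melanogaster and the motors that run on it. They are 10 genes of the 14210 listed in the expression files, taken by exact gene symbol: the microtubule-binding proteins futsch, tau and shot, the ankyrins Ank2 and Ank, the spectrin chains alpha-Spec and beta-Spec, and the kinesin genes unc-104, Khc and Klc. They were grouped by function, with earlier results of these data known, and each symbol matched 1 row.

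The study measured polyadenylated RNA in neurons and in neuroblasts of wild type larval brains late in the third instar. The neurons are the differentiated daughter cells of the neuroblasts, which are the dividing neural stem cells of the brain. Both were sorted by FACS from brains in which asense-Gal4 drives the nuclear fluorescent marker UAS-stingerGFP, so neurons and neuroblasts share the driver and the marker. Neurons gave 3 libraries that make 2 biological replicates, and neuroblasts gave 5 libraries that make 3. The labels do not say how the sort set neurons apart, which bear the marker of a driver for a neuroblast gene, nor that replicates came from separate sorts. Each gene has a level in FPKM, a count of fragments divided by transcript length and by the size of the library. This covers length and library size only, so comparisons of level between genes are approximate. Technical libraries of a replicate were averaged.

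An axon is filled with parallel microtubules that serve as tracks and are bound, spaced and stabilised by associated proteins. Beneath its membrane lies a lattice of spectrin tetramers, each built of alpha and beta chains, which ankyrins tie to membrane proteins. Kinesins walk toward the microtubule tips and carry vesicles and organelles from the cell body outward, and dynein carries cargo back. Neuroblasts divide and have no axon, although spectrin, kinesin-1 and many microtubule proteins are also used by dividing cells.

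Higher in neurons were 7 of the 10 genes, while 0 were higher in neuroblasts and 3 did not pass the test. Ank2 stood apart with 476 ± 8.85 FPKM in neurons (SD, n = 2), against 22.5 ± 21.1 in neuroblasts (SD, n = 3). Next in size of difference were futsch, unc-104 and tau, whose mean FPKM in neurons was 15, 13.1 and 11.4 times that in neuroblasts. The spectrin chains and shot differed less, by 2.25 to 3.59 times, and both subunits of kinesin-1 (Khc and Klc) and Ank did not pass. The test was limma on log2(FPKM + 1), two-sided, with adjusted p under 0.05 after Benjamini-Hochberg adjustment over the 7975 genes that reached 1 FPKM in at least 2 replicates. All 10 genes reached that level in both neuron replicates and in at least 2 neuroblast replicates.

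These counts stand against a broad difference between the cell types. Of all tested genes 63.3% were called, 29.9% as higher in neurons and 33.4% as higher in neuroblasts. The replicates of the cell types did not overlap for 9 of the 10 genes, against 78.6% of all tested genes. The median log2 fold change, neuron minus neuroblast, was 1.56 for the 10 genes and -0.17 for all tested genes. The median of all tested genes moved with the scaling, to 0.26 with upper quartile scaling and 0.31 with scaling without ribosomal protein genes. Fold changes below come from the deposited FPKM, unless another scaling is named, and were not centred on this median. Genes higher in neurons made up 47.2% of calls as deposited, 58.6% with upper quartile scaling and 59.99% without ribosomal protein genes.

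**Figure D1:**
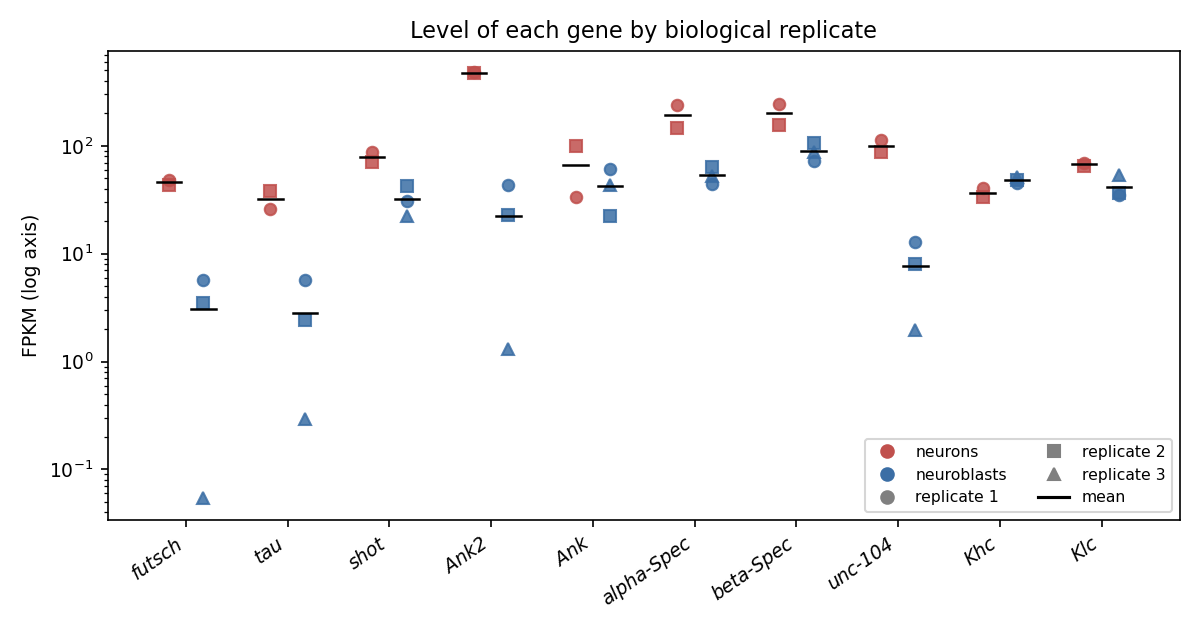
Level of each gene in FPKM on a log axis, with neuron replicates in red on the left and neuroblast replicates in blue on the right of each gene. Marker shapes give the replicate number and black bars the mean; futsch, tau, Ank2 and unc-104 have neuron points far above all neuroblast points, whereas Ank overlaps.

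Futsch, the fly relative of MAP1B, binds microtubules and is known for its part in axon growth and in shaping synapses. In the files it lies on chromosome X from 1303102 to 1345400, in coordinates of a build not given in the sources used here. It had 48.1 and 43.6 FPKM in the neuron replicates, against 5.65, 3.49 and 0.0542 FPKM in neuroblast replicates 1, 2 and 3. The neuron replicates lay close together, and the lowest of them was 7.72 times the highest neuroblast replicate. The log2 fold change was 3.89 (SE 0.74, limma adjusted p = 0.0036).

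Tau, the other classical axonal microtubule-binding protein, is encoded on 3R from 23466365 to 23482718. Its level was 26.0 and 38.0 FPKM in neurons, against 5.71, 2.42 and 0.292 FPKM in neuroblasts. All neuron values exceeded all neuroblast values, by 4.55 times at the nearest. The log2 fold change was 3.39 (SE 0.66, limma adjusted p = 0.00399). Among the 10 genes tau had the lowest mean level in both cell types.

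Short stop (shot, 2R, 9751742 to 9829615) is a spectraplakin, a giant protein that links microtubules to actin. It differed from futsch and tau in being well expressed in neuroblasts. Shot had 87.6 and 70.4 FPKM in neurons, against 30.8, 42.2 and 22.6 FPKM in neuroblasts. The groups did not overlap, and the log2 fold change was 1.32 (SE 0.32, limma adjusted p = 0.00956). With neuron replicate 1 left out it was 1.16 and no longer passed (limma adjusted p = 0.0789). In such a fit the lone neuron replicate is assumed to vary like the neuroblast replicates. The files list 22 transcripts for shot, and a level per gene does not tell them apart.

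The ankyrins gave unlike values. Ank2 (3L, 7648489 to 7711439) is known as the neuronal ankyrin of the fly, whose long forms extend into axons and hold synapses in place, while Ank (chromosome 4, 137015 to 150378) is the broadly expressed one. Ank2 had 483 and 470 FPKM in neurons, against 43.4, 22.7 and 1.299 FPKM in neuroblasts. In neurons it had the highest mean FPKM of the 10 genes, and 98.7% of tested genes had a lower mean there. Its log2 fold change was 5.15 (SE 1.12, limma adjusted p = 0.00644), and the neuroblast replicates behind this wide error spanned 1.299 to 43.4 FPKM.

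Ank showed no such separation. It had 33.4 and 98.7 FPKM in neurons, against 60.6, 22.5 and 43.5 FPKM in neuroblasts. The neuron replicates differed from each other by more than the cell types did, and the ranges overlapped. The log2 fold change was 0.55 with a 95% interval of -0.77 to 1.87 (limma adjusted p = 0.410), so neither a rise nor a fall was resolved. Its sign turned without neuron replicate 2, at -0.22, and on the flow cell shared by both cell types, at -0.14.

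Ank2 and futsch each carry a failed quantification in 1 library of neuron replicate 1. Cufflinks gave the status FAIL to Ank2 at 511 FPKM, with an interval of 0 to 1490, and the other technical library read 455 FPKM. For futsch the failed library read 46.5 FPKM and the other 49.8 FPKM. With failed values left out the log2 fold changes were 5.11 for Ank2 and 3.91 for futsch, and both still passed.

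The spectrin chains were abundant in both cell types and higher in neurons. alpha-Spec (3L, 1779111 to 1795319) had 239 and 146 FPKM in neurons, against 44.0, 64.1 and 52.8 FPKM in neuroblasts. beta-Spec (X, 17551454 to 17563270), its partner in the tetramer, had 243 and 155 FPKM in neurons, against 71.9, 106 and 88.1 FPKM in neuroblasts. In each chain neuron replicate 1 was the highest sample and no sample of one cell type fell within the range of the other.

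The log2 fold change was 1.7999 for alpha-Spec (SE 0.31, limma adjusted p = 0.00246) and 1.14 for beta-Spec (SE 0.31, limma adjusted p = 0.0149). With neuron replicate 1 left out, beta-Spec did not pass, at 0.82 (limma adjusted p = 0.166). Both chains have 1 listed transcript, so their depth can be read from the Cufflinks interval. It corresponds to 5106 to 13100 fragments of alpha-Spec in the neuron libraries and 2585 to 18358 in the neuroblast libraries.

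Unc-104 (2R, 12639004 to 12660002) is the kinesin-3 motor that carries synaptic vesicle precursors down the axon. It had 113 and 87.6 FPKM in neurons, against 12.8, 8.10 and 1.95 FPKM in neuroblasts. The lowest neuron replicate was 6.85 times the highest neuroblast replicate. The log2 fold change was 3.804 (SE 0.62, limma adjusted p = 0.00202).

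Kinesin-1 is the general motor of axonal transport, and its levels in the cell types lay closer together than those of unc-104. Its heavy chain Khc (2R, 12154465 to 12159483), which holds the motor domain, had 40.3 and 33.4 FPKM in neurons, against 44.7, 47.8 and 51.8 FPKM in neuroblasts. Its light chain Klc (3L, 12739716 to 12743156), which binds cargo, had 69.6 and 64.6 FPKM in neurons, against 34.7, 36.7 and 53.4 FPKM in neuroblasts. The replicates of the cell types did not overlap for either chain, with Khc lower and Klc higher in neurons.

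Neither chain passed. The log2 fold change of Khc was -0.38 with a 95% interval of -0.94 to 0.18 (limma adjusted p = 0.195), and its sign turned to 0.088 with upper quartile scaling, 0.0039 with quantile normalization and 0.14 without ribosomal protein genes. That of Klc was 0.70 with a 95% interval of 0.05 to 1.35 (limma adjusted p = 0.0580). Klc passed under the 4 other scalings, with log2 fold changes of 0.95 to 1.23, and also on the shared flow cell, at 0.94, and without neuroblast replicate 3, at 0.89. The intervals leave room for differences of up to 1.35 on the log2 scale, and depth was 525 to 916 fragments of Klc in the neuron libraries.

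**Figure D2:**
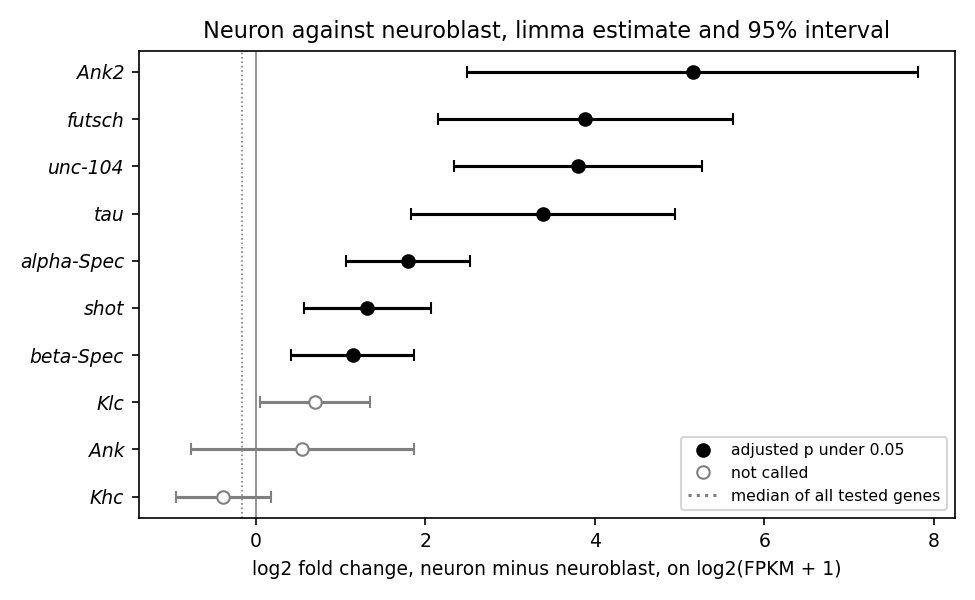
Log2 fold change of each gene, neuron minus neuroblast, on the log2(FPKM + 1) scale, with the limma 95% interval; filled points passed an adjusted p of 0.05. Of the 10 genes, 7 passed on the neuron side, from 1.14 for beta-Spec to 5.15 for Ank2, and the dotted line marks the median of all tested genes at -0.17.

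Batches of sequencing were read from the flow cell IDs recorded with the deposited libraries. Neuron replicate 1 and neuroblast replicates 1 and 2 were run on 1 flow cell, 5 libraries in all, and the others on 3 more. Within the shared flow cell the log2 fold changes were 3.90 for Ank2, 3.34 for unc-104, 3.17 for futsch, 2.49 for tau, 2.15 for alpha-Spec, 1.47 for beta-Spec and 1.26 for shot. All 7 passed limma's test there, where the lone neuron replicate is assumed to vary like the neuroblast ones, and for Ank2, futsch, unc-104 and tau the value was smaller than over all replicates. Neuroblast replicate 3, which is not on that flow cell, held the lowest neuroblast values of these 4 genes.

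The neuroblast replicates differed most in futsch, tau, Ank2 and unc-104. As a percent of the neuron mean, neuroblast replicates 1, 2 and 3 stood at 12.3%, 7.61% and 0.118% for futsch, at 17.9%, 7.55% and 0.912% for tau, at 9.12%, 4.76% and 0.273% for Ank2, and at 12.8%, 8.09% and 1.95% for unc-104. These 4 genes, of the 7 called higher in neurons, were each highest in neuroblast replicate 1 and lowest in replicate 3. Of all 2381 genes called higher in neurons, 1422 (59.7%) had that order too, so it is not particular to these genes. The summed level of 5 neuron markers (elav, n-syb, brp, Syt1 and cpx) had the same order, at 16.5%, 7.62% and 1.304% of its neuron mean.

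In FPKM the marker sum was 654 and 1006 in the neuron replicates, against 137, 63.2 and 10.8 in neuroblast replicates 1, 2 and 3, and 4 of the 5 markers were under 1 FPKM in replicate 3. What part neuron RNA has in the neuroblast values was not tested. In such bulk samples fewer cells of a type and less RNA per cell cannot be told apart. Without neuroblast replicate 1, which had the highest marker sum, the log2 fold changes were larger, at 6.02 for Ank2, 4.43 for futsch, 4.27 for unc-104 and 3.95 for tau. Without neuroblast replicate 3, which had the lowest marker sum, they were smaller, at 3.88 for Ank2, 3.10 for futsch, 3.16 for unc-104 and 2.76 for tau. The same 7 genes passed limma's test without replicate 1, and these 7 and Klc without replicate 3.

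Spectrins, shot and kinesin-1 did not follow that order. In neuroblast replicate 3, where the neuron markers were lowest, alpha-Spec stood at 27.4% of its neuron mean, shot at 28.6%, beta-Spec at 44.2%, Ank at 65.8%, Klc at 79.6% and Khc at 141%. Summed over all genes, FPKM was 321551 to 343514 in neuron libraries and 449268 to 753682 in neuroblast libraries, highest in replicate 3. The percents of the neuron mean were not adjusted for these totals. Over the neuroblast replicates alpha-Spec ranged from 22.8% to 33.3%, beta-Spec from 36.1% to 53.1% and Khc from 121% to 141%. Shot ranged from 28.6% to 53.4%, Klc from 51.7% to 79.6% and Ank from 34.0% to 91.6%. Shot was also lowest in replicate 3, but highest in replicate 2. The sum of 5 neuroblast markers (dpn, mira, wor, ase and CycE) was 43.3 and 74.6 FPKM in neurons, against 1321 to 1454 FPKM in neuroblasts.

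**Figure D3:**
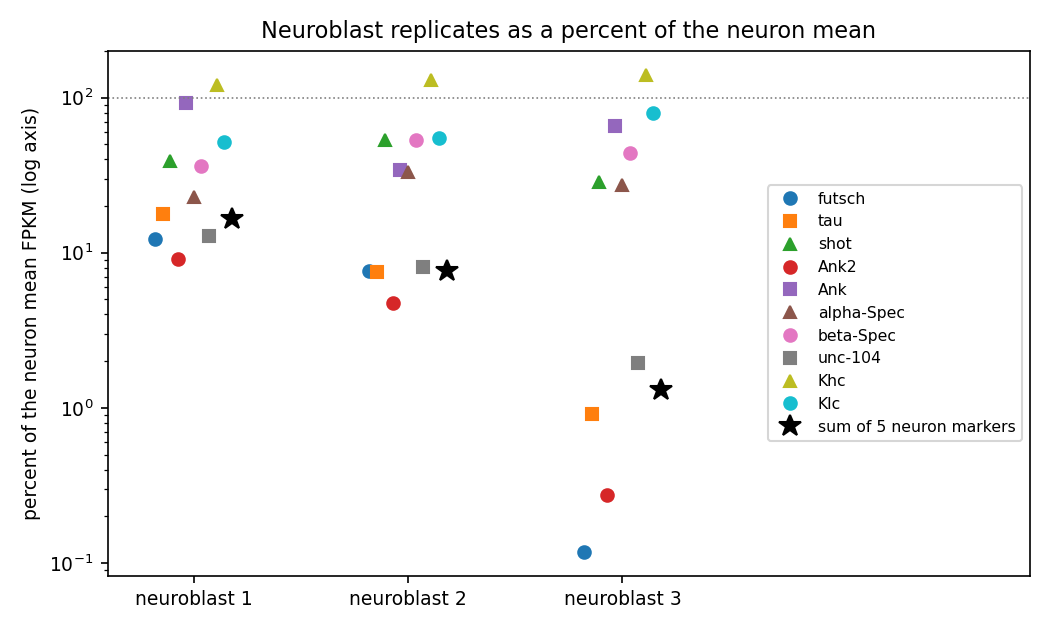
Level of each gene in the 3 neuroblast replicates as a percent of its neuron mean, on a log axis, with the summed level of 5 neuron markers as a star and the neuron mean as a dotted line at 100%. In neuroblast 3 futsch, tau, Ank2 and unc-104 lie at 0.118% to 1.95%, while the other genes lie at 27.4% or above.

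Markers of other cells were low or went both ways. The glial regulator repo had 7.97 and 9.66 FPKM in neurons, against 1.06, 0.529 and 0.207 FPKM in neuroblasts. In a list of 8 glial genes 7 were tested, of which 4 passed toward neurons and 2 toward neuroblasts. The summed list ran from 85.6 to 113 FPKM in neurons and from 165 to 240.3 FPKM in neuroblasts. Most of the neuroblast sum came from nrv2, at 155, 83.3 and 131 FPKM, and Eaat1, at 67.5, 59.3 and 68.6 FPKM. Under 1 FPKM were 4, 5 and 4 of the 8 in neuroblast replicates 1, 2 and 3. In neuron replicates 1 and 2 that count was 0 and 1. At 0 was 1 of the 8 in neuroblast replicate 1 and 0 in the other neuroblast replicates. Of 5 haemocyte markers, the blood cell genes, 4 were under 1 FPKM in each neuron replicate and 5 in each neuroblast replicate, with sums of 4.51 and 5.25 FPKM in neurons and 0.155 to 0.695 FPKM in neuroblasts. He was at 0 in all replicates. The 1 haemocyte marker that was tested, the peroxidasin gene Pxn, was higher in neurons, at 3.90 and 4.899 FPKM, against 0.652, 0.373 and 0.129 FPKM in neuroblasts (log2 fold change 1.97, limma adjusted p = 0.00114). The part of glial or blood cell RNA in the values was not tested.

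The order of the levels differed between the cell types. In neurons it ran from Ank2 at 476 FPKM through beta-Spec at 199, alpha-Spec at 193, unc-104 at 100.1, shot at 79.0, Klc at 67.1, Ank at 66.1, futsch at 45.9 and Khc at 36.8 to tau at 32.005 FPKM. Neighbours whose replicates overlapped, and so were not set apart, were beta-Spec with alpha-Spec, Klc with Ank, Ank with futsch, and Khc with tau. In neuroblasts beta-Spec led at 88.6 FPKM and stood above all replicates of alpha-Spec, the next gene, at 53.7 FPKM.

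Below it Khc had 48.1 FPKM, Ank 42.2, Klc 41.6, shot 31.9, Ank2 22.5, unc-104 7.61, futsch 3.06 and tau 2.81 FPKM in neuroblasts, and each overlapped its neighbour. Ank2 thus led in neurons, while in neuroblasts its replicates overlapped those of shot, the gene next above it in mean level. Unc-104 stood above Khc in both neuron replicates and below it in all neuroblast replicates.

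Ratios between partner genes do not depend on a library's scaling factor, since both levels come from that library. The heavy to light chain ratio of kinesin-1 (Khc over Klc, FPKM over FPKM) was 0.579 and 0.517 in neurons, against 1.29, 1.302 and 0.970 in neuroblasts. All neuron ratios lay below all neuroblast ratios. The mean log2 ratio differed by -1.11 between neurons and neuroblasts, with SDs of 0.12 in neurons and 0.24 in neuroblasts.

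The 2 spectrin chains were close to equal in FPKM in neurons and not in neuroblasts. alpha-Spec over beta-Spec was 0.982 and 0.943 in neurons, against 0.612, 0.606 and 0.5997 in neuroblasts. The ratio was tight in each cell type, with SDs on the log2 scale of 0.041 in neurons and 0.015 in neuroblasts, against a difference of 0.67. Although the neuron replicates differed in both chains, their ratio hardly moved.

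Ank2 over Ank was 14.4 and 4.76 in neurons, against 0.717, 1.01 and 0.0298 in neuroblasts, which did not overlap either. Futsch over tau was 1.85 and 1.15 in neurons, against 0.988, 1.44 and 0.185 in neuroblasts, and these overlapped. A two-sided exact permutation test over the replicates gave p = 0.1 for the kinesin, spectrin and ankyrin ratios and p = 0.5 for futsch over tau. With 2 against 3 replicates 0.1 is the smallest p the test can give, so no ratio can pass 0.05, and adjusted over the 4 ratios none can be lower.

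**Figure D4:**
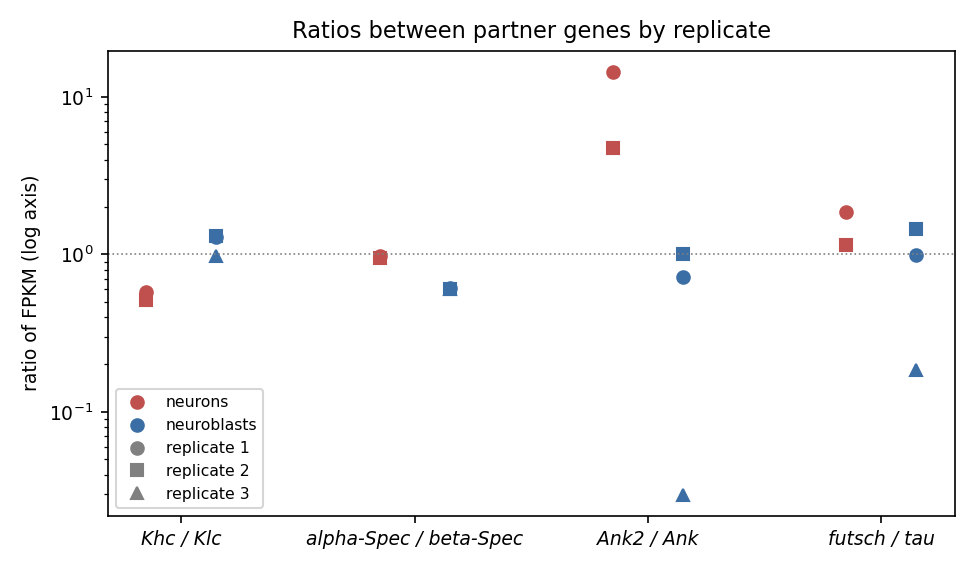
Ratio of FPKM between partner genes on a log axis, with neuron replicates in red on the left and neuroblast replicates in blue on the right; shapes give the replicate number. alpha-Spec over beta-Spec lies at 0.943 to 0.982 in neurons and 0.5997 to 0.612 in neuroblasts, and Khc over Klc at 0.517 to 0.579 in neurons and 0.970 to 1.302 in neuroblasts.

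Lists of related genes were read in the same fit, with counts set against the 29.9% of all tested genes called higher in neurons and 33.4% in neuroblasts. The order of the neuron markers in the neuroblast replicates, highest in replicate 1 and lowest in replicate 3, was also that of 1422 of the 2381 genes called higher in neurons (59.7%). Of the list genes called higher in neurons it was that of 4 of 8 anterograde motors and adaptors, 0 of 2 dynein and dynactin genes, 5 of 7 microtubule regulators, 3 of 4 spectrin and ankyrin partners and 9 of 9 growth cone regulators. What part neuron RNA has in these differences was not tested.

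Of 12 further anterograde motors and adaptors, neurons had higher levels of 8 and neuroblasts of 0, with a median log2 fold change of 1.88. Kap3, the accessory subunit of kinesin-2, averaged 49.7 ± 9.88 FPKM in neurons and 5.02 ± 2.02 in neuroblasts (SD, n = 2 and 3; log2 fold change 3.12, limma adjusted p = 0.000920). The kinesin-3 family motor Khc-73 averaged 72.99 ± 1.38 FPKM in neurons and 11.4 ± 3.20 in neuroblasts, and Unc-76, which binds kinesin-1, 88.0 ± 12.1 and 21.0 ± 1.81 FPKM.

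Their log2 fold changes were 2.61 and 2.01, both called. The 4 genes that did not pass, named after their values were seen, were milt and Miro, which attach mitochondria to kinesin-1, the small GTPase Gie and Pat1, with log2 fold changes of 0.07 to 0.34. Aplip1, a kinesin adaptor of the JIP1 family also named after its values were seen, had 67.9 and 83.1 FPKM in neurons, against 7.77, 3.20 and 0.755 FPKM in neuroblasts.

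For retrograde transport, 2 of 15 tested dynein and dynactin genes passed toward neurons and 5 toward neuroblasts. The share toward neuroblasts was close to the 33.4% of all tested genes, and the median log2 fold change was -0.21, close to the -0.17 of all. The motor subunit Dhc64C averaged 81.7 ± 20.4 FPKM in neurons and 38.4 ± 3.82 in neuroblasts, and the dynein regulator Lis-1 76.5 ± 0.862 and 44.7 ± 9.38 FPKM, with log2 fold changes of 1.05 and 0.78. On the neuroblast side were the light chains Dlc90F, at 71.4 ± 32.7 FPKM in neurons and 300.1 ± 116 in neuroblasts, and robl, at 46.4 ± 13.0 and 112 ± 39.5 FPKM, and the dynactin filament protein Arp87C, at 47.9 ± 5.02 and 107 ± 40.9 FPKM.

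These dynein counts depended on scaling and on single replicates. They were 4 in neurons and 1 in neuroblasts with upper quartile scaling, so which side held more calls depended on the scaling. With neuron replicate 1 left out they were 0 and 2, and with neuron replicate 2 left out 1 and 1. Dhc64C did not pass when neuron replicate 1 was left out, at 0.80 (limma adjusted p = 0.144). Without neuroblast replicate 1 or 2 the counts were 1 in neurons and 3 in neuroblasts, and Lis-1 did not pass when either of these or either neuron replicate was left out, with limma adjusted p-values of 0.0940 to 0.179. Robl did not pass when neuron replicate 2 was left out (limma adjusted p = 0.146), nor Arp87C when either neuron replicate was left out (limma adjusted p = 0.0899 and 0.146). With upper quartile scaling robl had -0.76 and Arp87C -0.62, and neither passed.

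Among 16 tested microtubule regulators, which serve spindles as well as axons, neurons had higher levels of 7 and neuroblasts of 5, with a median of 0.36. Higher in neurons were the polarity kinase par-1, at 145 ± 16.7 FPKM against 35.4 ± 10.8 in neuroblasts, the minus-end protector Patronin, at 78.6 ± 7.44 against 24.4 ± 5.93, and the tubulin-binding stathmin stai, at 184 ± 77.0 against 28.6 ± 15.3 FPKM. Their log2 fold changes were 2.05, 1.67 and 2.69. Higher in neuroblasts were the microtubule polymerase msps, at 19.9 ± 0.711 FPKM in neurons and 103 ± 14.3 in neuroblasts, the deacetylase HDAC6, at 9.91 ± 0.1701 and 26.9 ± 4.13, and the plus-end protein CLIP-190, at 6.03 ± 0.841 and 23.0 ± 9.26 FPKM.

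For msps, HDAC6 and CLIP-190 the log2 fold changes were -2.30, -1.34 and -1.69. CLIP-190 did not pass without neuron replicate 2, at -1.57 (limma adjusted p = 0.0514), nor with upper quartile scaling, at -1.26 (limma adjusted p = 0.0637). The list counts were 4 in neurons and 3 in neuroblasts with either neuron replicate left out.

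Of 9 partners of spectrin and ankyrin 4 passed toward neurons and 2 toward neuroblasts, with a median of 0.52. The beta-heavy spectrin gene kst went against beta-Spec: it had 1.01 and 1.02 FPKM in neurons, against 17.96, 22.1 and 13.1 FPKM in neuroblasts (log2 fold change -3.19, limma adjusted p = 0.000631). Its product can pair with the alpha chain in place of the common beta chain. The adducin hts, which caps and links spectrin and actin, averaged 182 ± 1.96 FPKM in neurons and 75.5 ± 15.4 in neuroblasts, and the actin-capping tmod 79.1 ± 26.6 and 20.8 ± 9.46 FPKM.

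The tropomyosin Tm1 stood at 163 ± 9.21 FPKM in neurons and 76.2 ± 10.3 in neuroblasts, and the membrane linker Moe at 60.7 ± 16.8 and 209 ± 57.6 FPKM. Log2 fold changes were 1.28 for hts, 1.92 for tmod, 1.09 for Tm1 and -1.76 for Moe. The count in neurons was 1 with neuron replicate 2 left out, where the limma adjusted p was 0.0522 for hts and 0.0835 for Tm1. It was 2 with neuron replicate 1 left out, where that of Tm1 was 0.0613.

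Among 13 growth cone actin regulators 9 passed toward neurons and 2 toward neuroblasts, with a median of 1.71. The coronin-type crosslinker pod1 averaged 216 ± 26.6 FPKM in neurons and 38.9 ± 15.7 in neuroblasts, and the formin DAAM 45.3 ± 4.57 and 15.5 ± 0.719 FPKM. Their log2 fold changes were 2.52 and 1.48. The formins parted, since dia, which is needed for cytokinesis, stood at 2.96 ± 0.162 FPKM in neurons and 14.7 ± 4.08 in neuroblasts, with a log2 fold change of -1.95.

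The cofilin tsr, which severs actin filaments, stood at 431 ± 117 FPKM in neurons and 1287 ± 501 in neuroblasts, with a log2 fold change of -1.53. It did not pass without neuron replicate 1, at -1.25 (limma adjusted p = 0.136), and the count in neuroblasts was then 1. With quantile normalization it stood at -0.35 (limma adjusted p = 0.391).

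**Figure D5:**
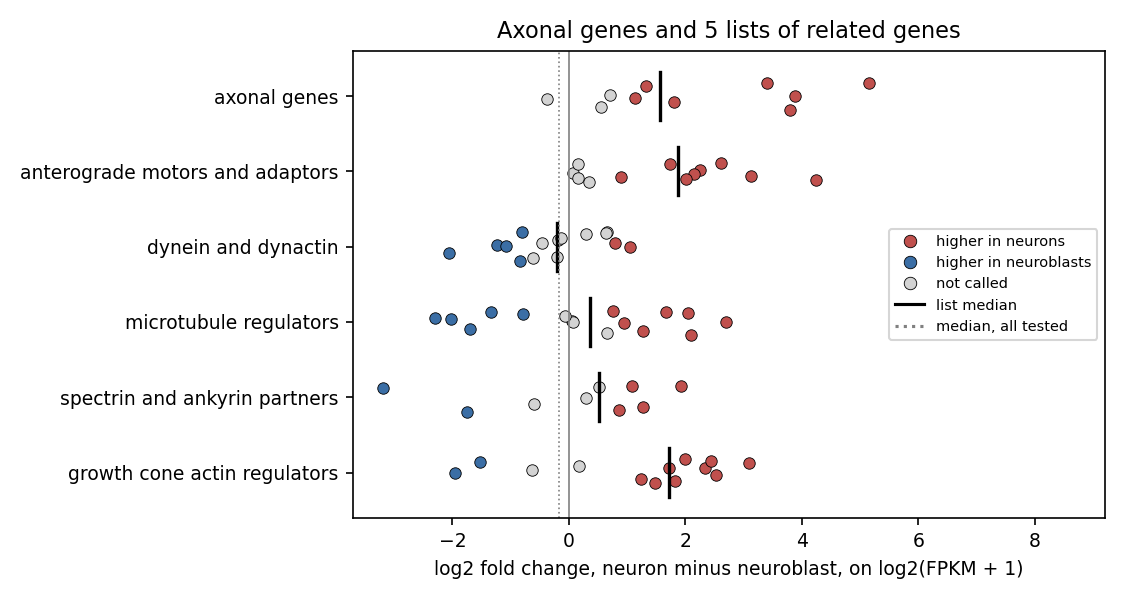
Log2 fold change, neuron minus neuroblast, of the 10 axonal genes and of the tested genes in 5 related lists, coloured by call, with a black bar at each list's median and a dotted line at the median of all tested genes. Anterograde motors and growth cone actin regulators have medians of 1.88 and 1.71, and dynein and dynactin of -0.21.

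Outside the lists, the 3 genes with replicate values most like those of futsch were sought, measured as the root mean square distance of centred log2(FPKM + 1) over the 5 replicates. They were Alk at 0.13, CG6495 at 0.14 and chn at 0.14. Alk averaged 49.0 FPKM in neurons and 2.67 in neuroblasts, chn 50.7 and 2.96, and CG6495 52.3 and 3.21 FPKM.

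The authors' deposited table of their own DESeq comparison lists 3532 genes, with a largest adjusted p of 0.00995, and its fold is written as neuroblast over neuron. Among its genes are 7 of the 10 described here, per the authors' deposited table, and all 7 are among those called above. The authors' deposited table gives log2 folds, neuroblast over neuron, of -4.34 for Ank2, -3.99 for futsch, -3.84 for unc-104, -3.67 for tau, -1.96 for alpha-Spec, -1.63 for shot and -1.36 for beta-Spec. It rests on the same libraries, so it is no independent measurement.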

How the data were processed

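FPKM values per gene were computed by the authors for each library and deposited as Cufflinks tables, per the file headers. The submitters' processing notes name Cufflinks 1.3.0, DESeq 1.8.3, HTSeq, TopHat 1.4.1 and BWA 0.6.1 without their roles. Coordinates are of a genome build not given in the sources used here. The authors' deposited comparison gives for each gene p-values, raw and adjusted, beside the fold (ratio) and the log2 of that fold. Libraries were strand-marked, per the labels' protocols, but whether counting used the strand is not given.

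Technical libraries were averaged on log2(FPKM + 1), and 3 neuroblast and 2 neuron replicates were compared with limma 3.58.1 in R 4.3.3, with a trended prior variance, over 7975 genes at 1 FPKM or more in at least 2 replicates. Fold changes on this scale understate low genes. Intervals are at the 95% level. Nothing in the labels says that replicates came from separate sorts, so p-values measure the spread between these samples. The code was tested on simulated data with 200 changed genes, a smaller share than the 63.3% called here. That run checked the code and not these calls.

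The members and lists were chosen with earlier results of these data known. The text names all 10 members and, from each of 5 related lists, up to 3 called genes per direction by adjusted p, of which 1 is not reported here. One listed gene, ringer, had no row in the files, and Cdlc2 was under the filter.

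Depth came from the width of each Cufflinks interval, taken as a counting error of 2 SD. For genes with 1 transcript 91.0% to 91.6% of values under 200 fragments came out whole within 0.05. Such genes summed to 953228 to 1443297 fragments in neuron libraries and 2184515 to 16282423 in neuroblast libraries. These cover counting error only. Alternatives changed the pseudocount, filter, scaling, technical libraries, prior, block, flow cell, threshold and replicates, and added after seeing the data was leaving out failed values.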

Additional observations from a re-analysis of the deposited data

How the results depend on the processing

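Of the 10 genes, 7 were called higher in neurons as deposited and 5 to 8 under all alternatives, and 0 were called higher in neuroblasts under any of them. Over the alternatives, 176 fold changes of these genes kept direction and call, 6 newly passed (all of Klc), 3 no longer passed and 5 changed sign. Ank had -0.14 on the shared flow cell and -0.22 to 1.32 with single replicates left out. Khc had 0.088 with upper quartile scaling, 0.0039 with quantile normalization and 0.14 without ribosomal protein genes. Same-numbered replicates of the cell types deviated from their group means with correlations of -0.52 and -0.39 across genes. With 2 neuron replicates the deviations of 1 mirror those of the other, so these are not separate checks. Such correlations cannot settle whether the numbers pair the samples. With the replicate block 6 of the 10 genes were called, and beta-Spec had 1.15 with a limma adjusted p of 0.0637. Neurons have no replicate 3, so the block gave these genes the same fold changes as leaving out neuroblast replicate 3. Those alternatives are thus not separate checks of fold change. Without neuroblast replicate 3 beta-Spec passed at the same 1.15 (limma adjusted p = 0.0281). Over all genes, calls higher in neurons were 1404 on the shared flow cell and 1095 to 2434 with single replicates left out, against 2381.

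Among the lists, dynein and dynactin counts in neurons were 4 with each of the 4 other scalings, 1 with the replicate block and 0 at an adjusted p under 0.01, and 0 to 2 with single replicates left out. In neuroblasts they were 1 with upper quartile scaling, without ribosomal protein genes, with the block, on the shared flow cell and at 0.01, 3 with median ratio scaling, quantile normalization and the first technical library, and 1 to 5 with replicates left out. Microtubule regulators in neurons were 4 with the block and at 0.01 and 4 to 6 with replicates left out, and in neuroblasts 3 with upper quartile scaling, without ribosomal protein genes and at 0.01, and 3 to 5. Spectrin and ankyrin partners in neurons were 2 with the block and 1 to 4 with replicates left out. Growth cone regulators in neuroblasts were 1 with quantile normalization, the block and at 0.01, and 1 to 2 with replicates left out. The cause was not tested. Over genes with 1 transcript, the neuron libraries held 953228 to 1443297 fragments and the neuroblast libraries 2184515 to 16282423, and no fit at matched depth was made.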

Other observations

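All 10 genes span more bases than the median tested gene, which spans 2798 bases in the files. Their spans run from 3441 bases for Klc to 77874 for shot, and Ank2 spans 62951 and futsch 42299 bases. Khc, Klc, alpha-Spec and beta-Spec have 1 listed transcript, while tau has 5, Ank 6, unc-104 7, Ank2 16 and shot 22.

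In a reference annotation of another build, exons of Klc share 155 of 2065 bases with CG32109 on the opposite strand, and exons of beta-Spec share 164 of 7896 bases with CG12990 on the opposite strand. CG32109 had 3.32 and 11.3 FPKM in neurons, against 20.5, 7.02 and 35.1 FPKM in neuroblasts. Ank2 shares 5874 of 46969 exon bases with CG44195 on the same strand, and Ank 567 of 6229 with a G5 transposable element on the same strand. No level is given here for CG44195 or for that element. Futsch shares 1186 of 23308 exon bases with Gr2a on the same strand, and Gr2a had 3.81 and 1.47 FPKM in neurons, against 0.609, 0.426 and 0 FPKM in neuroblasts. Unc-104 shares 168 of 8066 exon bases with CG42392 on the same strand, and CG42392 had 12.2 and 39.4 FPKM in neurons, against 3.20, 0.284 and 0 FPKM in neuroblasts. CG12990 had 0.0471 and 0 FPKM in neurons, against 0.547, 0.641 and 1.23 FPKM in neuroblasts. alpha-Spec shares 130 of 8347 exon bases with dlt on the same strand, and dlt had 18.4 and 13.6 FPKM in neurons, against 12.2, 11.4 and 18.7 FPKM in neuroblasts. The part of these genes and of that element in the values was not tested.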
